A study of Arabidopsis thaliana with 45 samples.

Results

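H3K27me3 in wild-type Arabidopsis was compared between the aerial part of 2-week-old plants and 7-day-old seedlings, using the 3 ChIP-seq peak lists of each age, 6 of the 45 samples of the study. The lists were chosen by their labels alone, and all of their 46826 peaks on the 5 nuclear chromosomes were used. The study looked at chromatin and RNA after loss of TOR, a growth-controlling kinase, and in plants with less or altered FIE. The 2-week wild type is labelled Ctrl and has the genotype Col-0; it grew on solid medium, and its shoots were harvested without the roots. The 7-day wild type is labelled Col-0; it grew in liquid medium, and whole seedlings were harvested. Neither group carried a transgene per the labels, and whether the Ctrl plants received oestradiol was not given in the sources used here. Each library came from pooled seedlings, and nothing states that the 3 libraries of a group came from separate cultures, so the spread between them may be technical. Age, organ, culture medium and experiment all differ between the groups and cannot be told apart, so "2 weeks" and "7 days" below name the libraries and not a cause.

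A second pair of library groups, which the choice of genes in the first pair did not use, was read beside it. GFP-FIE is a fie mutant complemented with wild-type FIE fused to GFP, grown and harvested as Ctrl was. DMSO is Col-0 at 7 days that received the solvent DMSO for its last 3 days, in the experiment with TOR inhibitors. Both have 3 libraries. RNA was read in Ctrl and in amiR-fie-es, plants of 2 weeks in which oestradiol induced an artificial miRNA against FIE from the start of growth. RNA libraries of GFP-FIE and of SSTS/AAAA, a 2-week line with FIE mutated at phosphosites, entered the same fit. They helped to set its filter, normalisation and spread. H3K9me2 was read in 3 libraries of Col-0 at 7 days. No RNA of 7-day wild type was used.

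H3K27me3 is the histone mark set by Polycomb Repressive Complex 2, in which FIE is a core subunit that all versions of the plant complex share. It lies over the bodies of genes that are kept silent in a tissue, and in Arabidopsis it covers regulators of flowers, embryos and meristems in leaf cells. As a plant moves from seedling to flowering, the mark is gained at some genes and lost at others. The flowering repressor FLC is the textbook case of silencing through the mark by vernalization.

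In the peak lists as deposited, nearly every gene that carried the mark in the 7-day libraries also carried it at 2 weeks. The 2-week peaks also covered more length. Ctrl had 8603, 8904 and 8308 peaks, and Col-0 had 7111, 7018 and 6882. The peaks covered 6.48, 6.68 and 6.05 Mb in Ctrl and 4.51, 4.39 and 4.28 Mb in Col-0. Every Ctrl library was above every Col-0 library in both measures. The mean covered length was 6.40 ± 0.324 Mb in Ctrl against 4.39 ± 0.117 Mb in Col-0 (SD, n = 3 each), a ratio of 1.46, with 1.34 to 1.56 over the 9 pairs of libraries. The two-sided exact permutation test gave p = 0.1, the smallest value that 3 against 3 libraries allow.

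Peaks were both more numerous and wider at 2 weeks. The median peak was 619 ± 10.3 bp long in Ctrl and 526 ± 4 bp in Col-0 (SD, n = 3 each; exact permutation p = 0.1), and the number of peaks had a ratio of 1.23. Peaks of at least 2000 bp made up 2.35%, 2.12% and 1.93% of the Ctrl peaks and 0.577%, 0.370% and 0.421% of the Col-0 peaks. The authors' fold enrichment per peak went the other way, with a median of 3.47 in Ctrl and 3.82 in Col-0, while the median −log10 q was 7.12 in Ctrl and 5.81 in Col-0. How deeply the ChIP libraries were sequenced is unknown, and the part of depth in these differences was not tested.

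The other pair of groups went the other way in total length and the same way in width. GFP-FIE peaks covered 5.28 to 5.67 Mb and DMSO peaks 7.88 to 8.22 Mb, so the 7-day libraries were the longer ones there. The median peak was 612 to 643 bp long in GFP-FIE and 485 to 514 bp in DMSO, so peaks were wider at 2 weeks in both pairs. Total length thus did not order the 4 groups by age, and the comparison below is of which genes were marked.

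**Figure D1:**
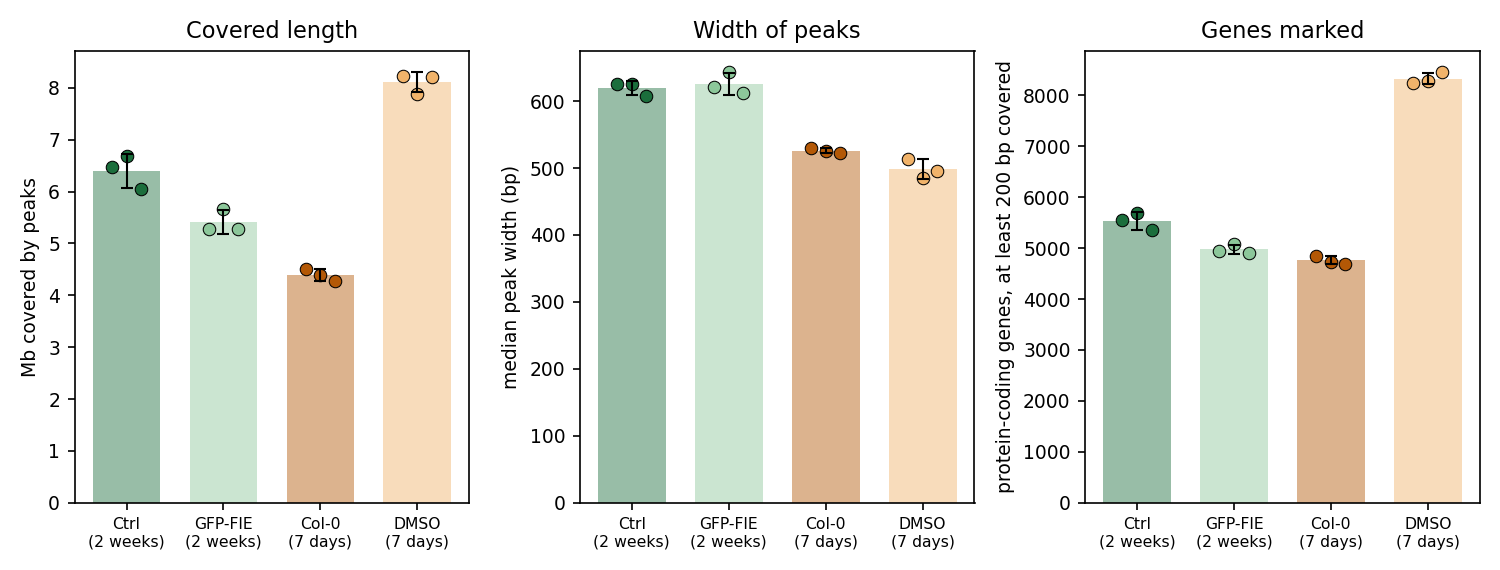
Covered length in Mb, median peak width in bp and number of marked protein-coding genes in each library (points), with group means (bars) and SD (error bars, n = 3). Ctrl lies above Col-0 in all 3 panels, and DMSO lies above the other groups in covered length and genes but has a median width of 485 to 514 bp, below both 2-week groups.

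A protein-coding gene was called marked in a library when peaks covered at least 200 bp of it, or all of a shorter gene. Ctrl had 5555, 5687 and 5345 marked genes and Col-0 had 4850, 4731 and 4696. In all 3 libraries 4921 genes were marked in Ctrl and 4010 in Col-0, and 3917 genes were in both sets. These 3917 genes are 14.3% of the 27444 protein-coding genes, 79.6% of the Ctrl set and 97.7% of the Col-0 set. As deposited, the 7-day set was thus almost wholly inside the 2-week set. At equal covered length, described below, the shared genes were 96.4% of the Ctrl set and 71.5% of the Col-0 set. The Jaccard index, the shared share of 2 gene sets, had a median of 0.790 between Ctrl and Col-0 libraries, against 0.859 within Ctrl and 0.809 within Col-0. Between Col-0 and DMSO, both 7 days old, it was 0.547, and between Ctrl and GFP-FIE it was 0.826.

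Within the shared genes the mark was longer at 2 weeks. The median gene of the 3917 had 960 bp covered in Ctrl and 761 bp in Col-0, or 63.2% and 49.4% of its length. Peaks covered at least 90% of the gene at 387 of them in Ctrl and at 171 in Col-0. The second pair did not repeat this: the medians over the same genes were 872 bp in GFP-FIE and 975 bp in DMSO. Of the 4.53 Mb covered in all 3 Ctrl libraries, 57.2% was also covered in all 3 Col-0 libraries, and of the 2.77 Mb covered in all 3 Col-0 libraries, 93.6% was covered in Ctrl. The bases covered in all of Ctrl and in none of Col-0 amounted to 0.386 Mb in 3857 regions with a median of 63 bp. Of these regions 87.0% lay within 100 bp of a peak in any of the Col-0 libraries, so most lay beside a stretch called at 7 days in some library. Only 35 of the 3857 regions reached 500 bp. The reverse regions came to 6.72 kb in 139 pieces.

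The longest of these regions lay over single genes. At 2 weeks they were chr5:15974449-15975557 in AT5G39890, chr1:6619203-6620012 over AT1G08925, chr1:10478097-10478875 in CAB1 and chr1:26056818-26057595 in WRKY57, and chr4:14621014-14621759 touched no gene of the table. These are coordinates of the TAIR10 peak files. They were 746 to 1109 bp long. At 7 days they were 200 to 254 bp long and lay in AT3G57500, CKX7, MEE39 and CYP71B12, with 1 outside genes. The second pair followed the order of age at some of them and not at others. DMSO covered 100% of the regions in CKX7 and AT3G57500 and GFP-FIE none of them, while GFP-FIE covered 79.4% of the region in AT5G39890 and 71.4% of that over AT1G08925 and DMSO none. Both groups covered 100% of the region in CAB1 and none of that in MEE39. At WRKY57 DMSO covered 69.5% and GFP-FIE 16.6%, and the 7-day region outside genes was covered in GFP-FIE and not in DMSO.

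Wide domains were read among genes marked at both ages, ranked by their mean covered length in Ctrl. That ranking by construction favours more length at 2 weeks, so the genes below are examples only. WRKY57, a WRKY transcription factor, had 3089, 2652 and 2503 bp in Ctrl and 1234, 1255 and 801 bp in Col-0. ATML1, a homeobox gene that specifies epidermis, had 2999, 2358 and 2657 bp in Ctrl and 1770, 1420 and 1715 bp in Col-0. At both genes the second pair overlapped, with 1886 to 2421 bp in GFP-FIE and 1986 to 2252 bp in DMSO at WRKY57. Some wide domains did not differ by the 200 bp rule, such as MS1, a regulator of pollen development, with 2512 to 2661 bp in Ctrl and 2076 to 2537 bp in Col-0.

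A small number of genes were marked in all 3 libraries of one age and in none of the other. There were 192 such genes at 2 weeks, 0.7% of all genes, and 7 at 7 days, 0.0255%. The 2-week genes had short and weak peaks. Their median covered length was 409 bp in Ctrl, 26.8% of the gene, and their peaks stood at the median percentile of 28.7 by q value within their library, against 74.9 for the genes shared by both ages. At 168 of the 192 genes the Ctrl peak touched no Col-0 peak in any library. The 7 genes at 7 days had a median percentile of 19.2 in Col-0. In the libraries not used for the call, 57 of the 192 genes were marked in all 3 GFP-FIE libraries and 44 in none, while 108 were marked in all 3 DMSO libraries and 38 in none. The shares marked in all 3 libraries were 29.7% in GFP-FIE and 56.2% in DMSO, against 16.0% and 26.7% of all protein-coding genes. Genes with mixed calls, marked in some libraries of the pair but in none of these patterns, had shares of 26.3% and 59.9%. The 192 genes were thus close to the mixed genes here. A neighbouring gene marked at both ages stood beside 37.5% of the 192 genes and 37.2% of the shared genes. The share was 37.3% for genes with mixed calls and 26.3% for all genes. H3K9me2, the mark of silent transposons, met the same rule at 2 of the 192 genes in all 3 of its Col-0 libraries at 7 days, at 9 of the 3917 shared genes and at 23 of all 27444 genes, which is 1.04%, 0.23% and 0.0838% of them.

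How many genes differ, and at which age, depended on how much of each peak list was taken. When every library was cut to the strongest peaks that make up the same covered length, 11 genes were marked at 2 weeks only and 318 at 7 days only. With the same number of peaks in each library the counts were 80 and 34. The cuts were set by Col-0 replicate 3, at 4281372 bp and 6882 peaks, so Ctrl lost more of its peaks than Col-0 did. Both cuts kept all 7 of the 7-day genes. These had no call in Ctrl and could be lost only through the little that Col-0 lost. Of the 192 genes at 2 weeks 8 came through both cuts. The 7 and the 8 thus do not compare how firm the 2 classes are. At equal covered length 2766 genes were shared, which is 96.4% of the Ctrl set and 71.5% of the Col-0 set, so the nesting of the sets also turned round.

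**Figure D2:**
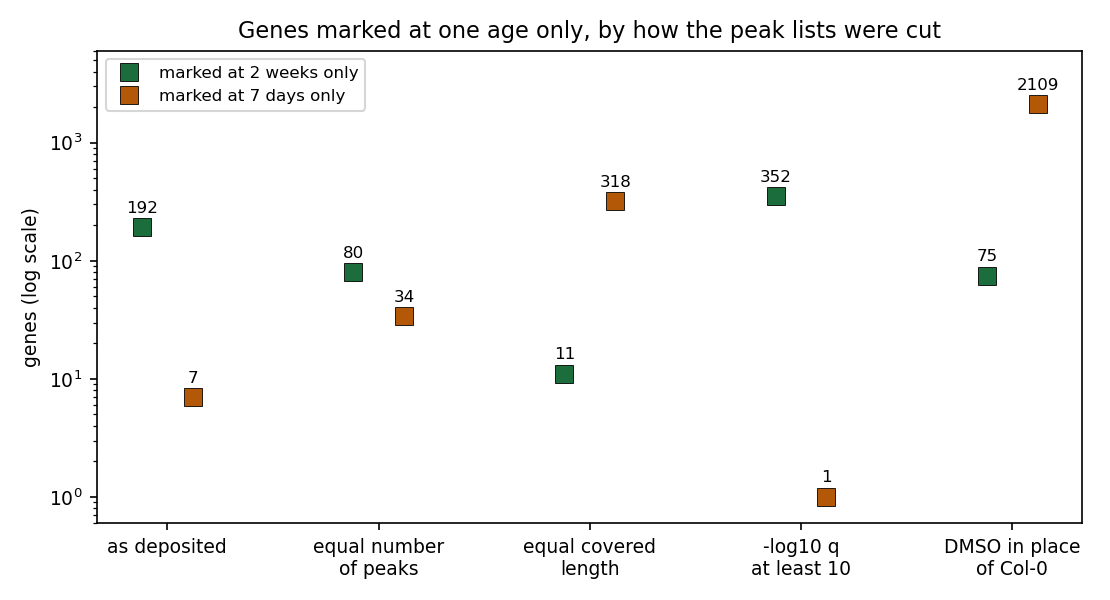
Number of protein-coding genes marked in all 3 libraries of one age and in none of the other (log scale), for the deposited peak lists and 4 other settings. The counts go from 192 at 2 weeks and 7 at 7 days as deposited to 11 and 318 at equal covered length.

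The covered length itself gave a finer comparison than presence or absence. At 652 genes, 2.38% of all, the lowest Ctrl library had at least 200 bp more than the highest Col-0 library, and at 10 genes, 0.0364%, the reverse held. Of the 652 genes 363 were marked at both ages, 184 were in the 2-week class and the others had mixed calls. At equal covered length 156 genes were longer at 2 weeks, 151 of them from the 652, and 344 were longer at 7 days, among them all 10. All 10 were also longer at 7 days with equal numbers of peaks, and none of them was called at a −log10 q of at least 10. Both equal cuts took more from Ctrl than from Col-0, which by construction favoured keeping these 10.

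Developmental regulators led the 10 genes with more H3K27me3 at 7 days. TCP2, a leaf-shaping transcription factor that limits cell proliferation, had 308, 211 and 200 bp covered in Ctrl and 1536, 863 and 1018 bp in Col-0. TCP14, a TCP factor of the other subfamily that acts in cell proliferation, had 0 bp in all 3 Ctrl libraries and 789, 200 and 896 bp in Col-0. SVP, a MADS-box repressor of flowering that acts with FLC, had 0, 226 and 0 bp in Ctrl and 758, 1004 and 874 bp in Col-0. At all 3 genes the groups did not overlap. The Col-0 peaks were weak, with −log10 q values of 4.85 to 5.36 at TCP2, of 3.42 to 6.97 at TCP14 and of 3.53 to 4.64 at SVP.

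2 hormone genes were also among the 10. PIN4, an efflux carrier of auxin, had 208, 401 and 247 bp in Col-0 and CKX7, a cytosolic cytokinin oxidase, had 280, 259 and 629 bp. Both had 0 bp in every Ctrl library. PAP29, a purple acid phosphatase by its annotated name, had 200, 288 and 267 bp, and AT3G61700 had 200, 350 and 261 bp, again with 0 bp in Ctrl. The remaining 3 genes, AT1G61060, AT3G57500 and AT4G35610, had 244 to 756 bp in Col-0 and at most 220 bp in Ctrl.

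The second pair showed the same order at 9 of these 10 genes. TCP14 had 285, 330 and 0 bp in GFP-FIE and 1432, 1457 and 1388 bp in DMSO. SVP had 0 bp in all 3 GFP-FIE libraries and 2393, 2020 and 2302 bp in DMSO. PIN4 had 0 bp in GFP-FIE and 1125, 946 and 1180 bp in DMSO, and CKX7 had 0 bp against 684, 671 and 607 bp. TCP2 had 772, 603 and 395 bp in GFP-FIE against 1539, 1445 and 1544 bp in DMSO. AT3G57500 was the exception, with a gap under 200 bp. At SVP, TCP14, PIN4 and CKX7 the mean length was larger in DMSO than in Col-0, and at AT1G61060 it was smaller, with 349 against 610 bp. Of the 9 genes 3 (TCP2, TCP14 and PIN4) were still called in both pairs at equal covered length, and 6 were with equal numbers of peaks. SVP had 0, 477 and 0 bp in DMSO at equal covered length, and PAP29, AT3G61700 and AT1G61060 had 0 bp there.

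The DMSO libraries also marked most highly expressed genes, and this stands beside the 9 of 10. Over all protein-coding genes 2794, or 10.2%, had more covered length in DMSO than in GFP-FIE. Among genes with 100 to 1000 CPM (library-normalised RNA counts) in Ctrl that share was 63.2%, against 10.5% at 10 to 100 CPM and 3.15% at 1 to 10 CPM. PIN4 and TCP14 lay in the upper range, with 135 and 107 CPM in Ctrl. SVP, TCP2, AT3G61700 and CKX7 lay between 10 and 100 CPM, and PAP29 had 9.29 CPM. AT4G35610 had no read in Ctrl, and at 0 CPM the share was 4.45%. AT1G61060 had 0.0245 CPM, and among genes with some RNA but under 1 CPM the share was 5.5%. The part of RNA level in the DMSO peaks was not tested.

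**Figure D3:**
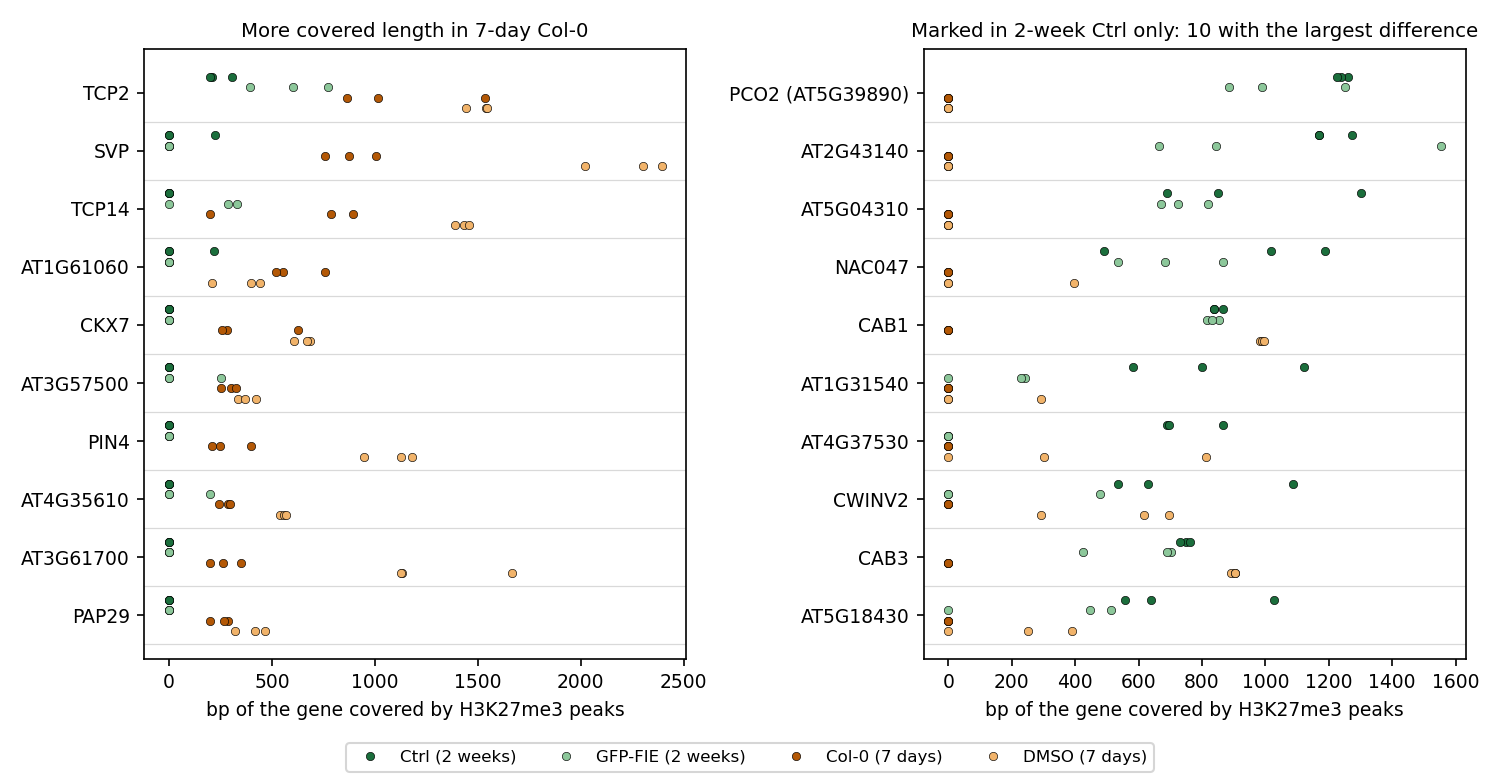
Covered length in bp in each of the 12 libraries (points) for the 10 genes with more length in 7-day Col-0 and for the 10 genes marked in 2-week Ctrl only with the largest difference of means. SVP, PIN4 and CKX7 have peaks in both 7-day groups and at most 226 bp in the 2-week groups; PCO2, AT2G43140 and AT5G04310 have peaks in both 2-week groups and 0 bp in both 7-day groups.

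Other members of these families were marked at both ages, over lists that were drawn up after the values were seen. Of 15 TCP factors 9 were marked in all 6 libraries, 1 at 7 days only and 4 in none. TCP1 had 1285, 1016 and 1517 bp in Ctrl and 1473, 1211 and 1882 bp in Col-0, so the groups overlapped. TCP24 had 613 bp in 1 Col-0 library and 0 bp elsewhere in the pair. Of 8 PIN carriers 5 were marked at both ages; PIN3 had no peak in either group, and PIN7 had 270 bp in 1 Col-0 library. Of 7 cytokinin oxidases 4 were marked at both ages and CKX1 and CKX6 in no library of the pair. DMSO also covered sister genes that were not called in Col-0 as a group. It had 966, 1371 and 641 bp at PIN3, 862, 1132 and 1219 bp at TCP4 and 1338, 1423 and 1154 bp at TCP24, with 0 bp in GFP-FIE. PIN7 had 720, 406 and 413 bp in DMSO and 272, 0 and 0 bp in GFP-FIE. TCP3, TCP20, CKX1 and CKX6 had 0 bp in DMSO. More length in DMSO than in GFP-FIE was thus not particular to TCP14 and PIN4.

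Among the genes marked at 2 weeks only, the largest difference was at AT5G39890, which encodes plant cysteine oxidase 2 (PCO2), an oxygen-dependent enzyme that marks factors of the low-oxygen response for breakdown. It had 1262, 1238 and 1225 bp covered in Ctrl and 0 bp in every Col-0 library. GFP-FIE had 885, 1252 and 989 bp and DMSO 0 bp. Both 2-week groups thus had the peak and both 7-day groups lacked a call. At equal covered length Ctrl kept the peak in 2 of 3 libraries, with 0, 1238 and 1225 bp.

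AT2G43140 and AT5G04310 had the same order. AT2G43140 had 1169, 1274 and 1170 bp in Ctrl, 665, 1554 and 843 bp in GFP-FIE and 0 bp in all 6 libraries at 7 days. AT5G04310 had 850, 1303 and 689 bp in Ctrl, 726, 819 and 672 bp in GFP-FIE and 0 bp at 7 days. NAC047, a transcription factor of the NAC family, had 1019, 1187 and 491 bp in Ctrl, 682, 865 and 536 bp in GFP-FIE, 0 bp in Col-0 and 395 bp in 1 DMSO library. AT2G43140 was also called under equal length and under equal number of peaks.

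For other genes of the class the second pair differed. CWINV2, a cell wall invertase, had 535, 1087 and 630 bp in Ctrl and 0 bp in Col-0, but 0, 478 and 0 bp in GFP-FIE and 696, 292 and 618 bp in DMSO. AT4G37530 had 691 to 867 bp in Ctrl, 0 bp in all Col-0 and GFP-FIE libraries, and 303, 0 and 812 bp in DMSO. AT1G31540 had 581 to 1122 bp in Ctrl and at most 293 bp in any library of the second pair. AT5G18430 had 558 to 1027 bp in Ctrl and overlapping values in GFP-FIE and DMSO. These genes do not follow age over the 4 groups.

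PCO2 is induced by low oxygen and NAC047 acts in the response to waterlogging, so 11 other genes of the low-oxygen response were read, in a list drawn up after these values were seen. Of these 10 had no call in any of the 6 libraries, among them ADH1, PDC1, HRE1, HRE2 and HRA1. SAD6 was marked at both ages with 1228 to 1534 bp in Ctrl and 1016 to 1176 bp in Col-0. None of the 11 was in the 2-week class.

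Over all genes, 36 had more covered length at 2 weeks in both pairs, without overlap and by at least 200 bp. They are 5.52% of the 652 genes of the first pair and 35.6% of the 101 genes of the second, which are 0.368% of all genes. PI, the floral organ identity gene PISTILLATA, had 2216, 2111 and 2064 bp in Ctrl, 1863, 1757 and 1703 bp in Col-0, 2112, 2111 and 2182 bp in GFP-FIE and 860, 912 and 844 bp in DMSO. Its values were unchanged at equal covered length. AGL15, a MADS-box factor of embryos, had 809, 1577 and 822 bp in Ctrl, 0, 499 and 373 bp in Col-0, 1137, 789 and 1457 bp in GFP-FIE and 272, 0 and 372 bp in DMSO. The rest of the 36 include NIT2, a nitrilase, with means of 1676 bp in Ctrl and 1074 bp in Col-0, the transcription factors WRKY48, Rap2.6L and MYB30, and CYP81F2, a cytochrome P450 of indole glucosinolate synthesis. At equal covered length and at equal number of peaks 11 of the 36 remained, PI, NIT2, WRKY48, Rap2.6L, CYP81F2 and AT2G43140 among them.

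Light-harvesting and Rubisco genes were read as a set drawn up after the values were seen. These encode the chlorophyll-binding antenna proteins, the small subunit of Rubisco and its activase, and are among the most expressed genes of a leaf. Of 26 such genes 5 were marked at 2 weeks only (CAB1, CAB3, LHB1B2, RCA and LHCB2.2), 9 had mixed calls, 12 had none, and no gene was marked at both ages. The 2-week class held 0.7% of all genes and 6 of the 107 genes over 1000 CPM (5.61%). CAB1 had 839, 839 and 867 bp in Ctrl, 815, 853 and 833 bp in GFP-FIE, 0 bp in Col-0 and 984, 990 and 996 bp in DMSO. RCA, Rubisco activase, had 697, 1086 and 323 bp in Ctrl, 602 to 870 bp in GFP-FIE, 0 bp in Col-0 and 2037 to 2051 bp in DMSO. Of the 4 groups Col-0 alone lacked a call at CAB1 and RCA, so these calls do not follow age. In all 3 libraries 8 of the 26 genes were marked in Ctrl, 0 in Col-0, 12 in GFP-FIE and 24 in DMSO. CAB1, CAB2, CAB3 and the RBCS genes have near-identical copies, so peaks and counts may be split among them and are uncertain.

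The RNA of these 26 genes in Ctrl ran from 33.2 to 18152 CPM with a median of 4497. Over all genes with more than 1000 CPM, 13 of 107 were marked in Ctrl, 3 in Col-0, 19 in GFP-FIE and 106 in DMSO. These are 12.1%, 2.80%, 17.8% and 99.1%. At 10 to 100 CPM the shares were 4.46%, 3.65%, 4.04% and 14.4%. Among genes with some RNA but under 1 CPM they were 39.6%, 32.9%, 35.2% and 42.3%. The 4 groups were thus closer to each other at genes with little RNA than at the most expressed ones. The part of RNA level in the photosynthesis calls was not tested.

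**Figure D4:**
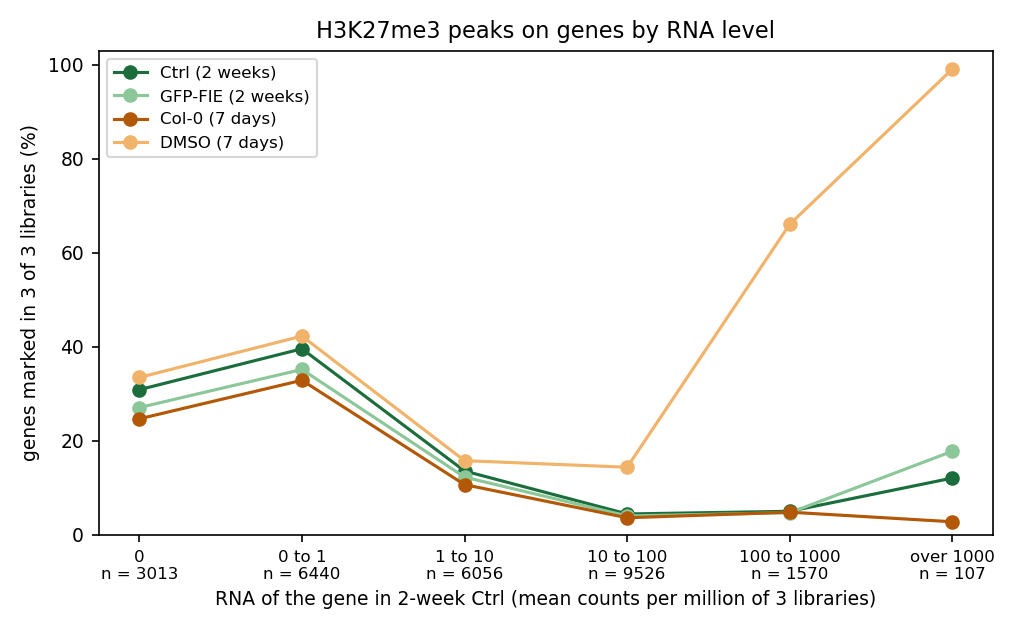
Percent of protein-coding genes marked in all 3 libraries of each group, by the RNA level of the gene in 2-week Ctrl (mean CPM of 3 libraries, with the number of genes per bin). The 4 lines lie close together up to 10 CPM; above 1000 CPM they stand at 12.1% in Ctrl, 2.80% in Col-0, 17.8% in GFP-FIE and 99.1% in DMSO.

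Most genes on the developmental lists were marked at both ages. Of 207 genes in 14 lists 122 were marked in all 6 libraries, 2 at 2 weeks only, none at 7 days only, 27 had mixed calls and 56 no call. The class of both ages held 14.3% of all protein-coding genes. No gene of the 14 housekeeping and photosynthesis genes or of the 8 Polycomb subunit genes was among the 122. Over the 207 genes the median covered length was 830 bp in Ctrl and 636 bp in Col-0.

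Floral organ identity MADS-box genes were marked in nearly every library. Of 14 such genes 13 were marked at both ages and AGL6 had mixed calls, with medians of 1961 bp in Ctrl and 1532 bp in Col-0. AG, which specifies stamens and carpels, had 1780, 1659 and 1240 bp in Ctrl and 657, 553 and 626 bp in Col-0. By the 200 bp rule the groups did not overlap at AG, FUL, PI and AGL6. AP3 had 1980 to 2100 bp in Ctrl and 1840 to 2098 bp in Col-0, so the groups overlapped. AG overlapped in the second pair, with 2736, 2482 and 1353 bp in GFP-FIE and 1638, 2393 and 1696 bp in DMSO.

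Of 24 flowering-time genes 14 were marked at both ages. FLC, the repressor that vernalization silences through H3K27me3, had 3037, 3782 and 2666 bp in Ctrl and 1394, 2048 and 1369 bp in Col-0, and the groups did not overlap. GFP-FIE had 1710, 2565 and 2141 bp at FLC and DMSO 2263, 2349 and 2754 bp, so the second pair overlapped. At equal covered length FLC had 1225, 0 and 975 bp in Ctrl and kept 1394, 2048 and 1369 bp in Col-0, which turns its order. AGL17, a promoter of flowering, had 2699, 3180 and 2746 bp in Ctrl and 1635, 1916 and 1765 bp in Col-0. FT, the mobile signal that starts flowering, had means of 1048 bp in Ctrl and 887 bp in Col-0, with overlapping libraries. SVP was the gene of the list with more length at 7 days.

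Meristem and boundary genes were marked at 13 of 13, with medians of 1472 bp in Ctrl and 1215 bp in Col-0. KNAT6, a homeobox gene of meristem boundaries, had 2270, 2285 and 2042 bp in Ctrl and 1261, 1052 and 743 bp in Col-0. In DMSO it had 1858 to 2121 bp, within the range of GFP-FIE. WUS, which maintains shoot stem cells, had 1544, 1731 and 1546 bp in Ctrl and 1467, 1411 and 1215 bp in Col-0, a gap under 200 bp. Of 9 WOX genes 7 and of 16 leaf polarity genes 11 were marked at both ages. ATHB15, a leaf polarity gene of the HD-ZIP III family, leaned to 7 days with 0, 299 and 0 bp in Ctrl and 616, 465 and 227 bp in Col-0, but its groups overlapped.

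Genes of seeds and embryos were marked in shoots and seedlings alike. Of 14 embryo and seed regulators 10 and of 12 seed storage genes 11 were marked at both ages. SESA5, a storage albumin, was covered for 830 bp in all 6 libraries. MEA, a Polycomb subunit of the endosperm, had 3019, 2775 and 2485 bp in Ctrl and 2138, 1313 and 1098 bp in Col-0. BBM, an embryo AP2 factor, had 2418, 2411 and 2329 bp in Ctrl and 1166, 1940 and 1043 bp in Col-0. At MEA and BBM the groups did not overlap. The 8 genes on a separate list of Polycomb Repressive Complex 2 subunits, FIE among them, had no call in any of the 6 libraries.

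Root genes were read because Col-0 included roots and Ctrl did not. Of 20 root genes 16 were marked at both ages, and none at 1 age only. Their medians were 1113 bp in Ctrl and 930 bp in Col-0, beside 960 and 761 bp for all genes marked at both ages. PLT1, a root stem cell factor, had 1216, 1292 and 967 bp in Ctrl and 625, 716 and 570 bp in Col-0. PYK10, a beta-glucosidase of roots and seedlings, had 786, 1102 and 804 bp in Ctrl and 495, 311 and 289 bp in Col-0. The RNA of the list in Ctrl had a median of 0.127 CPM, and 14 of the 20 genes were under 1 CPM, while the housekeeping and photosynthesis list had a median of 927 CPM. PYK10 was an exception among them with 257 CPM. Whether the roots in the 7-day material change the covered length was not tested.

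The 2 list members marked at 2 weeks only were both gibberellin 2-oxidases, which inactivate the growth hormone gibberellin. GA2OX2 had 385, 416 and 344 bp and GA2OX6 had 433, 444 and 354 bp in Ctrl, with 0 bp in Col-0 at both. Neither was kept at equal covered length. In the same list of auxin and gibberellin genes YUC2, an enzyme of auxin synthesis, had 1745, 1803 and 1769 bp in Ctrl and 1276, 1437 and 1536 bp in Col-0. In the vegetative phase change list 2 of 18 genes, SPL4 and MIR156C, were marked at both ages, and the 7 genes with mixed calls were all miRNA genes of the MIR156 and MIR172 families.

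**Figure D5:**
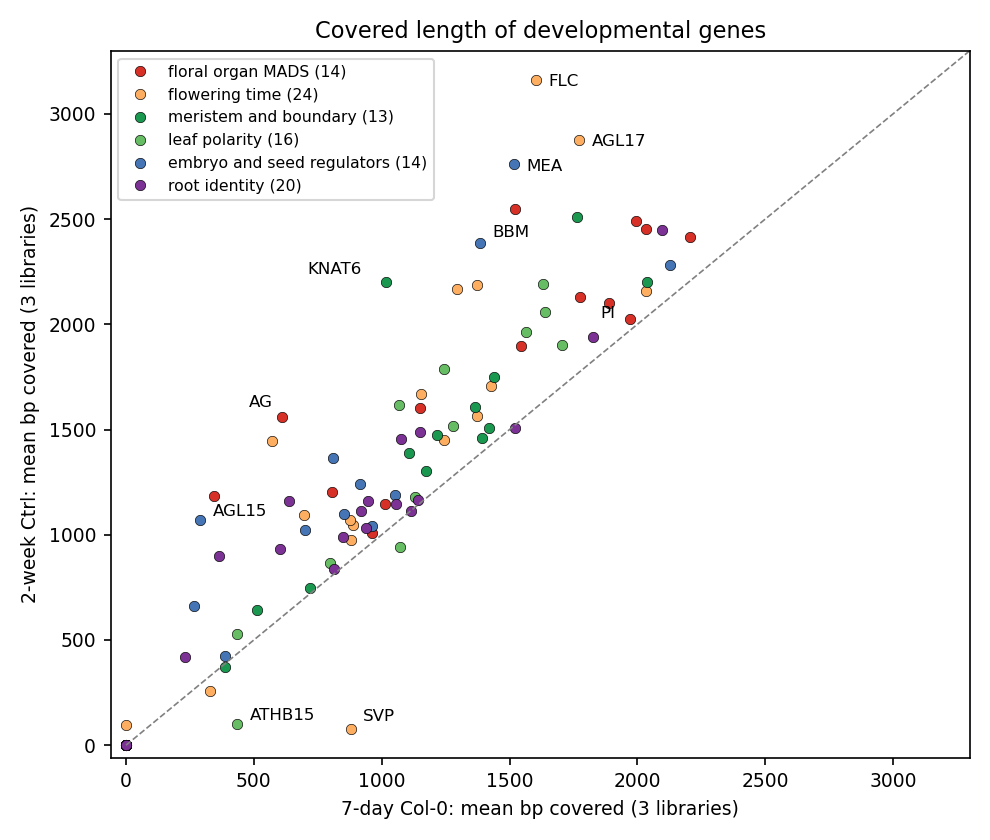
Mean covered length in bp of each gene in 6 lists, 7-day Col-0 on the horizontal axis and 2-week Ctrl on the vertical axis (3 libraries each; the dashed line marks equal lengths). Most genes lie above the line, FLC at 3162 against 1604 bp and KNAT6 at 2199 against 1019 bp among them; SVP and ATHB15 lie below it.

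RNA of the 2-week shoots was low at genes of the shared and the 2-week class and not at the 7-day genes. The median was 0.0849 CPM for the 3844 genes marked at both ages that had counts, 0.308 CPM for 186 genes of the 2-week class, and 10.5 CPM for unmarked genes. Under 1 CPM were 73.1%, 65.1% and 24.7% of them. The 7 genes of the 7-day class had a median of 30.6 CPM, and 1 of them was under 1 CPM. AT4G35610 was the gene under 1 CPM, with no read. Of the 7 genes 4 had no call in any GFP-FIE library. Their RNA at 7 days was not analysed here.

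Genes of the shared class and of the 2-week class were called in the RNA comparison at shares above that of all genes, and the difference between the classes was not tested. In amiR-fie-es against Ctrl, edgeR's quasi-likelihood test called 929 of 20046 genes tested as risen at least 2-fold at an adjusted p of at most 0.05 (4.63%) and 1053 as fallen (5.25%). Of the 186 genes of the 2-week class with counts 22 rose (11.8%) and 13 fell (6.99%), and 104 had enough reads for the test. Of the 3844 genes marked at both ages 354 rose (9.21%) and 259 fell (6.74%), and 1685 were tested. Over all 26712 protein-coding genes with counts 3.37% rose and 3.72% fell. Of the 7 genes of the 7-day class 6 were tested and none was called, too few to set against these shares. H3K27me3 itself covered 0.859 to 0.911 Mb in amiR-fie-es, and 937 of the 3917 shared genes (23.9%) and 6 of the 192 genes (3.12%) had a call in all 3 of its libraries, beside 961 of all 27444 genes (3.50%). The share of the 2-week class was thus near that of all genes.

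Of the 36 genes with more covered length at 2 weeks in both pairs, 29 were tested for RNA, 12 rose and 4 fell. Beside these and the list counts below, 4.63% of all genes tested rose and 5.25% fell. Of the tested genes marked at both ages 21% rose and 15.4% fell. Differences from these shares were not tested. PCO2 had 0.323, 0.258 and 0.327 CPM in Ctrl and 5.05, 4.92 and 5.72 CPM in amiR-fie-es, a log2 fold change of 4.09 ± 0.21 (SE; adjusted p = 1.81e-21, edgeR). PI went from 1.04, 1.33 and 1.09 CPM to 27.9, 29.0 and 29.2 CPM, a log2 fold change of 4.63 ± 0.09 (adjusted p = 2.94e-37, edgeR). NIT2 rose by 4.14 and AT2G43140 by 2.94 on the log2 scale. AGL15 fell by 1.27 and CYP81F2 by 1.28, so the direction was not shared. AT5G04310 had 1.69 CPM in Ctrl and 1.88 CPM in amiR-fie-es and did not pass the test. NAC047, whose gap in the second pair was under 200 bp, rose by 3.54 on the log2 scale. In the floral MADS list 13 of 14 genes rose, in the flowering-time list 7 rose and 7 fell of 22 tested, and in the low-oxygen list 9 rose and 1 fell of 13. The low-oxygen list, which holds PCO2 and NAC047, was drawn up after values were seen.

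Of the 10 genes with more H3K27me3 at 7 days SVP alone passed the test with a 2-fold change. It had 91.0, 90.5 and 89.1 CPM in Ctrl and 40.5, 43.9 and 42.5 CPM in amiR-fie-es, a log2 fold change of -1.09 ± 0.03 (SE; adjusted p = 2.02e-29, edgeR). TCP14 had a log2 fold change of -0.31, TCP2 of -0.46, PIN4 of -0.56 and PAP29 of 0.92, all short of 2-fold. AT1G61060 and AT4G35610 had too few reads and were not tested.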

How the data were processed

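H3K27me3 ChIP-seq peak lists of Ctrl, Col-0, GFP-FIE, DMSO and amiR-fie-es (3 libraries each) and RNA counts of 12 libraries were used. Per the submitters' processing notes, Trimmomatic 0.36, BWA 0.7.15-r1142, HISAT2 2.1.0, SAMtools 1.6, Subread 1.5.3 and MACS2 were used with TAIR10; their settings were not given in the sources used here. The deposited peak lists give one list per library, with a score, a fold enrichment and −log10 p and q values per peak as the authors' caller gave them. The deposited RNA values are raw counts per gene, 28866845 to 34543091 per library, which limit precision at low CPM. ChIP depth is unknown.

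Genes came from a RefSeq table of the assembly TAIR10.1, while the peak files use TAIR10, so its coordinates are not printed. Gene overlap was checked by shifting the peaks: 4921 genes were marked in all 3 Ctrl libraries in place and 3493 to 4160 after shifts of 1 to 20 kb. Of 32678 gene IDs with counts 31912 matched the table. A gene was marked in a library when at least 200 bp, or all of it, were covered, and classes need 3 of 3 libraries of one age and 3 or 0 of 3 of the other. Library values were compared by two-sided exact permutation tests. RNA was tested with edgeR 4.0.16 (R 4.3.3; TMM, filterByExpr, quasi-likelihood F test, Benjamini-Hochberg over all genes tested, all 12 libraries in the fit). CPM are TMM-normalised. On simulated counts 197 of 200 changed genes were recovered. Python 3.11.15 with numpy 2.4.6, pandas 2.3.3 and scipy 1.17.1 was used for peaks.

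The genes and lists were chosen with earlier results of these data known. Named genes were, per list, those in the classes of one age and then those with the largest difference of mean covered length; the 10 largest differences in each class of one age; and the longest regions of one age. The rule on covered length without overlap, the comparison with the second pair, the photosynthesis set and the lists of low-oxygen, TCP, PIN and cytokinin oxidase genes were added after the values were seen. Wide domains were named from the genes marked at both ages with the longest mean covered length in Ctrl. A planned comparison of pericentromeric windows was not run, since no map of them was used here.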

Additional observations from a re-analysis of the deposited data

Results flagged for a closer look

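The ratio of 2-week to 7-day libraries differed in direction between the pairs. Covered length was 1.46 times as large in Ctrl as in Col-0 and 0.667 times as large in GFP-FIE as in DMSO. The number of peaks was 1.23 times as large in Ctrl as in Col-0 and 0.562 times as large in GFP-FIE as in DMSO. In each pair the libraries of the 2 groups did not overlap. The difference between the pairs was not tested.

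At 79 genes the covered length was higher in Ctrl than in Col-0 and higher in DMSO than in GFP-FIE, both without overlap and by at least 200 bp. They are 12.1% of the 652 genes longer in Ctrl than in Col-0, near the 10.2% of all genes that were longer in DMSO than in GFP-FIE. PYK10, PLT1, YUC2, RCA and LHCB2.2 are among them. None of the 10 genes longer in Col-0 was longer in GFP-FIE than in DMSO. Only 0.368% of all genes were, so 10 genes are too few to read anything from this. The difference was not tested.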

How the results depend on the processing

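Covered length had a Ctrl to Col-0 ratio of 1.46, of 2.16 at a −log10 q of at least 10, of 1.33 with equal numbers of peaks and of 0.789 with DMSO in place of Col-0, which reversed it; it was 1.42 to 1.497 with single libraries left out. With the replicate block, an exact sign-flip permutation test gave p = 0.25 for the ratio of 1.46, the smallest that 3 pairs allow, and the RNA fit gave 353 and 22 risen and 259 and 13 fallen genes in the shared and the 2-week class; the numbers did not pair the RNA libraries (correlations of -0.0036, -0.0425 and -0.0194), and the block changed no call count by over 1.5 times. The cause of the changes below was not tested, except that fewer peaks or libraries enter by construction.

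At a −log10 q of at least 10, genes marked at both ages numbered 914 (3917 as deposited), at 2 weeks only 352 (192, of which 4 were shared) and at 7 days only 1 (7). Genes longer at 7 days were then 1 (10), longer at 2 weeks in both pairs 10 (36) and longer at 7 days in both pairs 0 (9), and list members were 37 at both ages (122) and 11 at 2 weeks only (2). At equal covered length the counts were 11 at 2 weeks only, 318 at 7 days only, 156 longer at 2 weeks (652), 344 longer at 7 days and 27 in both pairs at 7 days, with 0 list members at 2 weeks only and 7 at 7 days only (0). With equal numbers of peaks they were 80, 34, 405 and 37, and in both pairs 84 and 17. With DMSO in place of Col-0 they were 75, 2109, 233 and 2372, with 1 list member at 2 weeks only and 12 at 7 days only. Requiring 500 bp left 2500 genes at both ages, and requiring 50% of the gene left 1458 there and 3 at 7 days only. A gap of 1 bp gave 2032 and 41 longer genes, and 216 and 30 in both pairs. A gap of 400 bp gave 175 and 2, and 8 and 2 in both pairs.

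Leaving out 1 library gave 234 to 306 genes at 2 weeks only, 12 to 20 at 7 days only, 3927 to 4119 at both ages, 844 to 1050 longer at 2 weeks and 14 to 25 longer at 7 days, since fewer libraries must then meet the rule; the counts at 2 weeks were highest without Ctrl replicate 3 (306 and 1050) and without Col-0 replicate 1 (305 and 991). All RNA counts stayed within 1.5 times under every alternative run. In all, 102 values were counted as the same, 55 as moved and 1 as reversed. The limit of 1.5 times did not hold for covered length, whose ratio of 1.33 against 1.46 counted as moved. The 102 include every RNA count, among them those of the 7-day class, where no gene was called in any run. All values that moved or reversed were H3K27me3 results, so the 102 do not show how firm those results are.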
